A study of Mus musculus with 2 samples.

Results

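The interferon-induced GTPase genes described here are 10 of the 28200 genes in the count files: the guanylate-binding protein genes Gbp2, Gbp3, Gbp5, Gbp6, Gbp7 and Gbp9, and the immunity-related GTPase genes Igtp, Irgm1, Irgm2 and Iigp1. They were taken by symbol from a list, and each had counts in both libraries. In all 10 cell types with at least 50 cells in each library, the summed level of the 10 genes was lower in the knockout-labelled library than in the control-labelled library. The difference ran from 1.17-fold in type 1 conventional dendritic cells, where its counting interval reached equal levels, to 3.2-fold in type 2 conventional dendritic cells. In endothelial cells it was 1.48-fold, in Kupffer cells 1.4-fold and in stellate cells 1.27-fold. Single genes did not all follow: Gbp6 and Gbp9 had higher levels in T cells of the knockout-labelled library, and Irgm2 was nearly equal in stellate cells.

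These GTPases belong to cell-autonomous defence, the means by which a cell attacks microbes that have entered it. Interferon-gamma, made by T cells, NK cells and innate lymphoid cells, acts through its receptor and the kinases JAK1 and JAK2, and the transcription factor IRF1 takes part in switching the genes on. Type I interferon, which has a receptor of its own, can induce them too. Guanylate-binding proteins assemble on pathogen vacuoles and bacterial surfaces and help open them to caspase-11 (gene Casp4) and the AIM2 inflammasome. Among the immunity-related GTPases, Irgm1, Irgm2 and Igtp (also called Irgm3) sit on the cell's own membranes and hold effectors such as Iigp1 (also called Irga6) inactive there, and the autophagy conjugation proteins help to direct effectors to the vacuole.

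The inferior vena cava had been partly tied off in both mice (pIVCL), which models a congested liver. The control-labelled library carried the genotype Ctgffl/fl, that is, floxed alleles of Ctgf (current symbol Ccn2), which encodes connective tissue growth factor. The knockout-labelled library carried Cdh5-CreERT2; Ctgffl/fl, in which the promoter of the endothelial gene Cdh5 drives a Cre recombinase that tamoxifen switches on to delete those alleles, so the 2 libraries share the floxed alleles and the surgery and differ in the transgene. The animals were a male knockout mouse and a control littermate, with no age, strain or tamoxifen schedule stated in the labels. The sample titles give the genotypes the other way round, whereas the library names go with the genotype labels, so values are given by genotype label, as the control-labelled and the knockout-labelled library. Ccn2 in endothelial cells was 993 CPM (a gene's counts scaled to the total counts of its cell type) in the control-labelled library and 4.71 CPM in the knockout-labelled library, in the direction of the genotype labels, and in stellate cells it was 1123 and 1108 CPM.

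Each label has 1 library, so no difference between the genotypes could be tested, and mouse, library and genotype cannot be told apart. Intervals are exact 95% intervals and cover counting error only. After filtering, 7917 and 8799 cells remained (control first, here and below), with medians of 7972 and 9506 counts per cell, and the 2 libraries shared 2 barcodes. Cells were typed by their own marker genes, and 5039 and 6460 cells passed the gate of exactly 1 type. Hepatocytes, dead cells and erythrocytes had been depleted before capture, so cell numbers describe the suspension. A gene counted as measured in a type when the libraries together gave it 20 counts or more and either gave it at least 10 CPM, and as higher or lower when the libraries were at least 1.5-fold apart, a rule of size and not a test.

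The sequences just before the start sites were searched for a motif of interferon regulatory factors. The genes were listed as interferon-induced, so finding it is not independent of their choice. RefSeq promoters (GRCm38.p6, an older build than the GRCm39 of the count files) were at hand for 7 of the 10 genes, all but Gbp6, Gbp9 and Iigp1. Within 250 bases before the start, the paired GAAA motif (GAAA, then 2 bases of any kind, then GAAA), the core of the element bound by interferon regulatory factors, occurred on either strand in 7 of 7 genes, against 3.46% of 27025 genes (2.98% of 32851 promoters). The genes lie in families, and Igtp and Irgm2 have the same bases on both sides of the motif. The 7 genes are therefore not 7 separate observations. Each sequence below is read 5′ to 3′ on the strand of its gene and ends at the base before the start, with matches to the motif in capitals (a pair of TTTC is the paired GAAA motif on the other strand).
Gbp2, chr3:142620583-142620662, plus strand: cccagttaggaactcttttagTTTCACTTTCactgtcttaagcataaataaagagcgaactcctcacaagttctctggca
Gbp3, chr3:142559964-142560043, plus strand: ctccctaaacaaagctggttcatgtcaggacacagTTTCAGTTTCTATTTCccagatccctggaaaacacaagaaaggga
Gbp5, chr3:142496759-142496933, plus strand: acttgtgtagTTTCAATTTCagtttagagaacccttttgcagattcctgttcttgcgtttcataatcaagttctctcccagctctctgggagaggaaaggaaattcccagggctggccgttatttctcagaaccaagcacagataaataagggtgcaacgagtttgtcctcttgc
Gbp7, chr3:142530256-142530335, plus strand: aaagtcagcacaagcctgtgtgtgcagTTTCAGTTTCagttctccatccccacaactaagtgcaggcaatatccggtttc
Igtp, chr11:58199476-58199555, plus strand: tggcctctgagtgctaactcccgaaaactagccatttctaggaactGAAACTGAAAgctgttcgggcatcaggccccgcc
Irgm1, chr11:48871421-48871500, minus strand: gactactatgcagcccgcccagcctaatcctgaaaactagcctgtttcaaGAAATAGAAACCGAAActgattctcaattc
Irgm2, chr11:58214897-58214976, plus strand: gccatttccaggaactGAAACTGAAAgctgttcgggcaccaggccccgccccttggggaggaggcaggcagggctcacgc

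The paired GAAA motif lay 59 to 50 bases before the start in Gbp2 and 34 to 25 bases before it in Igtp. Gbp3 and Irgm1 each held a pair of overlapping matches, between 45 and 30 bases and between 30 and 15 bases before the start. In Gbp5 the match lay farther away, 165 to 156 bases before the start. Gbp7 had it at 53 to 44 bases and Irgm2 at 64 to 55. A match describes letters in a window and was not tested for binding or effect.

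The genes also lie in families. By RefSeq order, Gbp5, Gbp7, Gbp3, Gbp2b and Gbp2 follow each other, Gbp9 and Gbp6 lie in another cluster with Gbp8, Gbp4 and Gbp10, and Igtp is next to Irgm2. Such copies can share reads. Of the stretches of 50 bases in their GENCODE M21 transcripts, 70.7% in Gbp6 also occur in another gene, 65% in Gm43302 alone, so Gbp6 counts are uncertain. The share was 12.7% in Gbp7, 11.8% in Igtp (all with Irgm2), 8.05% in Gbp9, 7.77% in Irgm2 and at most 3.75% in the other 5 genes. Gm43302 had 0 counts in endothelial cells of both libraries. The sources used here do not say how reads that match several genes were counted.

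**Figure D1:**
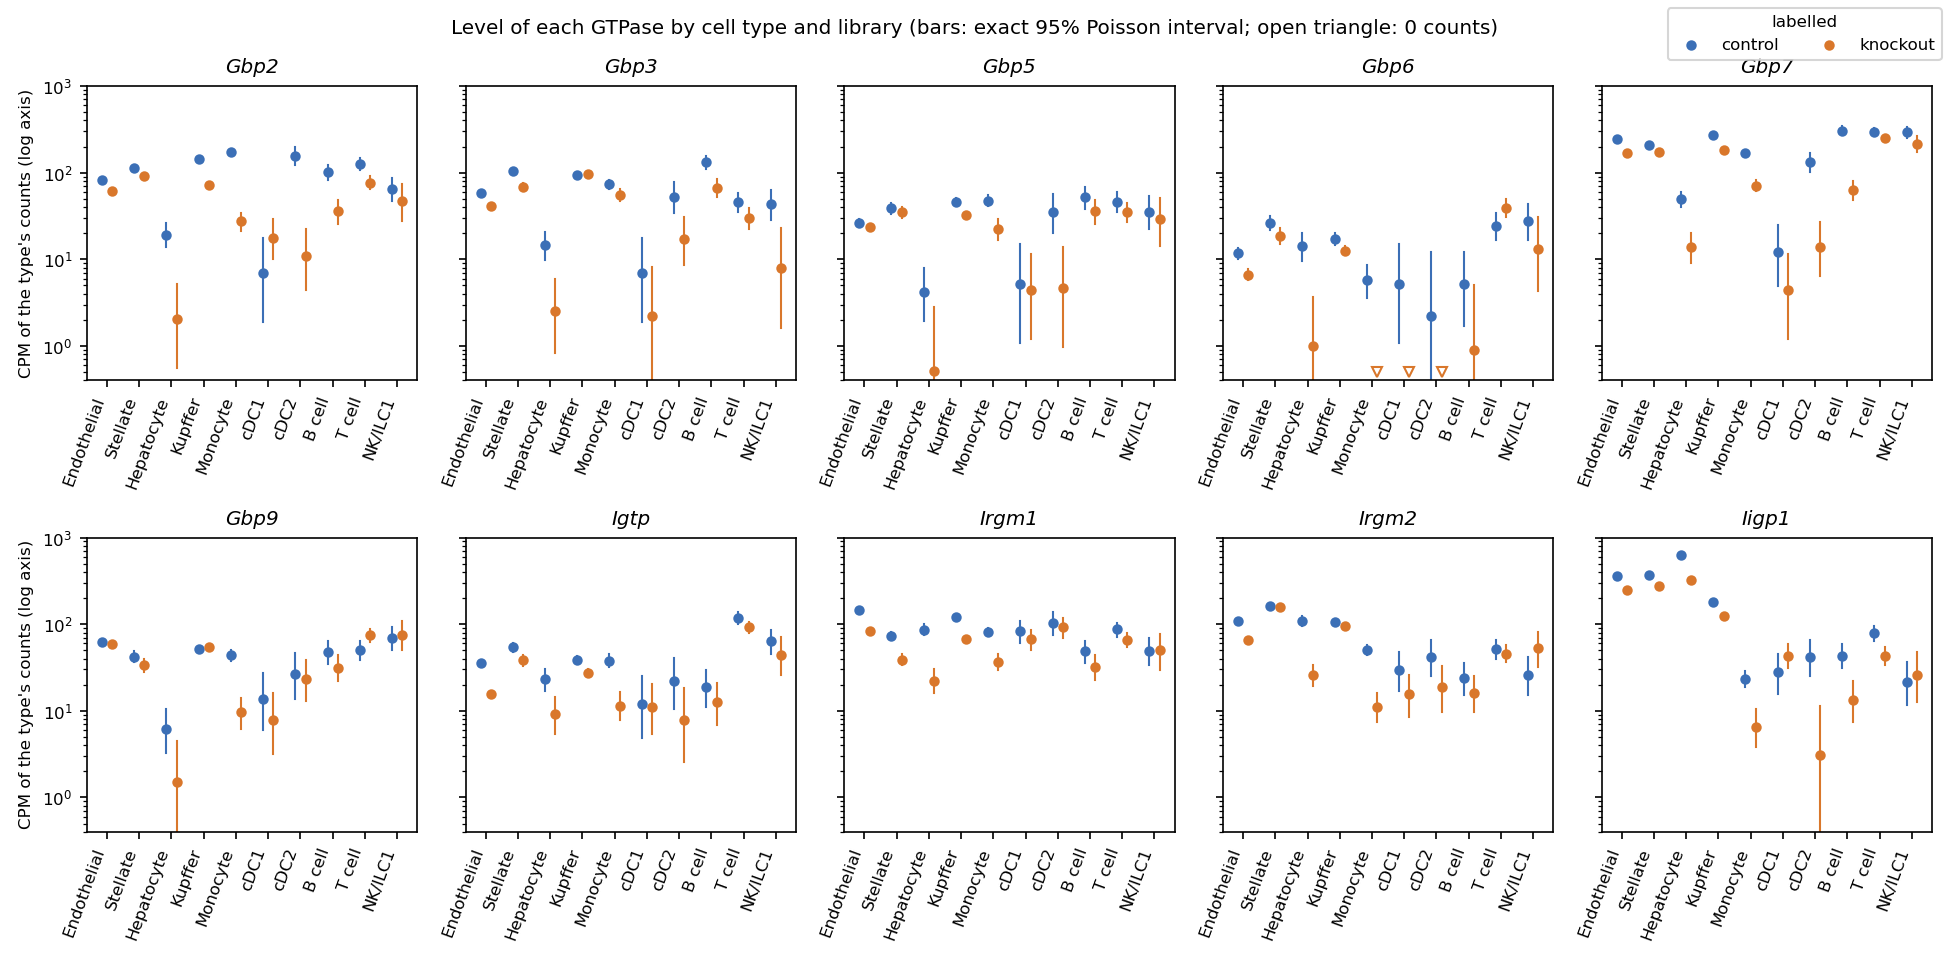
Level of each of the 10 GTPase genes (1 panel each) in 10 cell types, as CPM of the type's summed counts on a log axis, for the control-labelled library (blue) and the knockout-labelled library (orange). Points are values with exact 95% Poisson intervals and open triangles mark 0 counts; Iigp1 stands highest in hepatocytes and Igtp in T cells in both libraries.

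Where each gene was most abundant differed between the genes. Summed over the 10 genes, stellate cells (1185 and 930 CPM), endothelial cells (1140 and 771) and Kupffer cells (1070 and 765) were at the top in both libraries, and type 1 conventional dendritic cells at the bottom (202 and 174). In the knockout-labelled library only stellate cells stood apart at the top: endothelial cells spanned 760 to 781 CPM, Kupffer cells 752 to 777 and T cells 711 to 793. At the bottom of that library type 1 dendritic cells spanned 147 to 203 CPM and type 2 dendritic cells 159 to 229. In the control-labelled library they met for stellate (1153 to 1217) and endothelial cells (1123 to 1158). Levels are compared between cell types within a gene and not between genes, since counts are not scaled to transcript length.

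Among the guanylate-binding proteins, Gbp7 was highest in lymphocytes of the control-labelled library, with 306 CPM in B cells, 295 in NK cells and group 1 innate lymphoid cells (NK or ILC1) and 294 in T cells, values within each other's intervals. In the knockout-labelled library B cells held 62.7 CPM, while T cells still led with 249 CPM and NK or ILC1 followed with 215. Gbp2 was highest in classical monocytes of the control-labelled library at 173 CPM, followed by type 2 dendritic cells at 156 and Kupffer cells at 143. In the knockout-labelled library its highest level was 90.5 CPM, in stellate cells. Gbp9 was at most in NK or ILC1 in both libraries (69.4 and 75.9 CPM) and lowest in hepatocytes (6.1 and 1.52). The intervals in NK or ILC1, 50.6 to 92.9 and 50.8 to 109 CPM, included endothelial cells (61.8 and 59.6). In the knockout-labelled library they also included T cells (74.3 CPM). Gbp5 was highest in B cells in both, at 51.7 and 35.8 CPM, with T cells at 46.1 and 34.9 within the intervals.

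The immunity-related GTPases were distributed differently. Igtp was highest in T cells in both libraries, at 119 CPM (101 to 139) and 92.1 CPM (78.4 to 107), above NK or ILC1 at 63.2 and 44.5. Irgm2 was highest in stellate cells in both, at 161 CPM (149 to 173) and 157 CPM (145 to 169). Irgm1 led in endothelial cells of the control-labelled library at 147 CPM and in type 2 dendritic cells of the knockout-labelled library at 91.9 CPM, where the 83.5 CPM of endothelial cells lay within the interval of 70 to 119. The effector Iigp1 had its highest levels outside the blood lineages: 633 and 320 CPM in hepatocytes, 366 and 277 in stellate cells and 362 and 247 in endothelial cells. In NK or ILC1 it was 21.6 and 26.2 CPM.

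**Figure D2:**
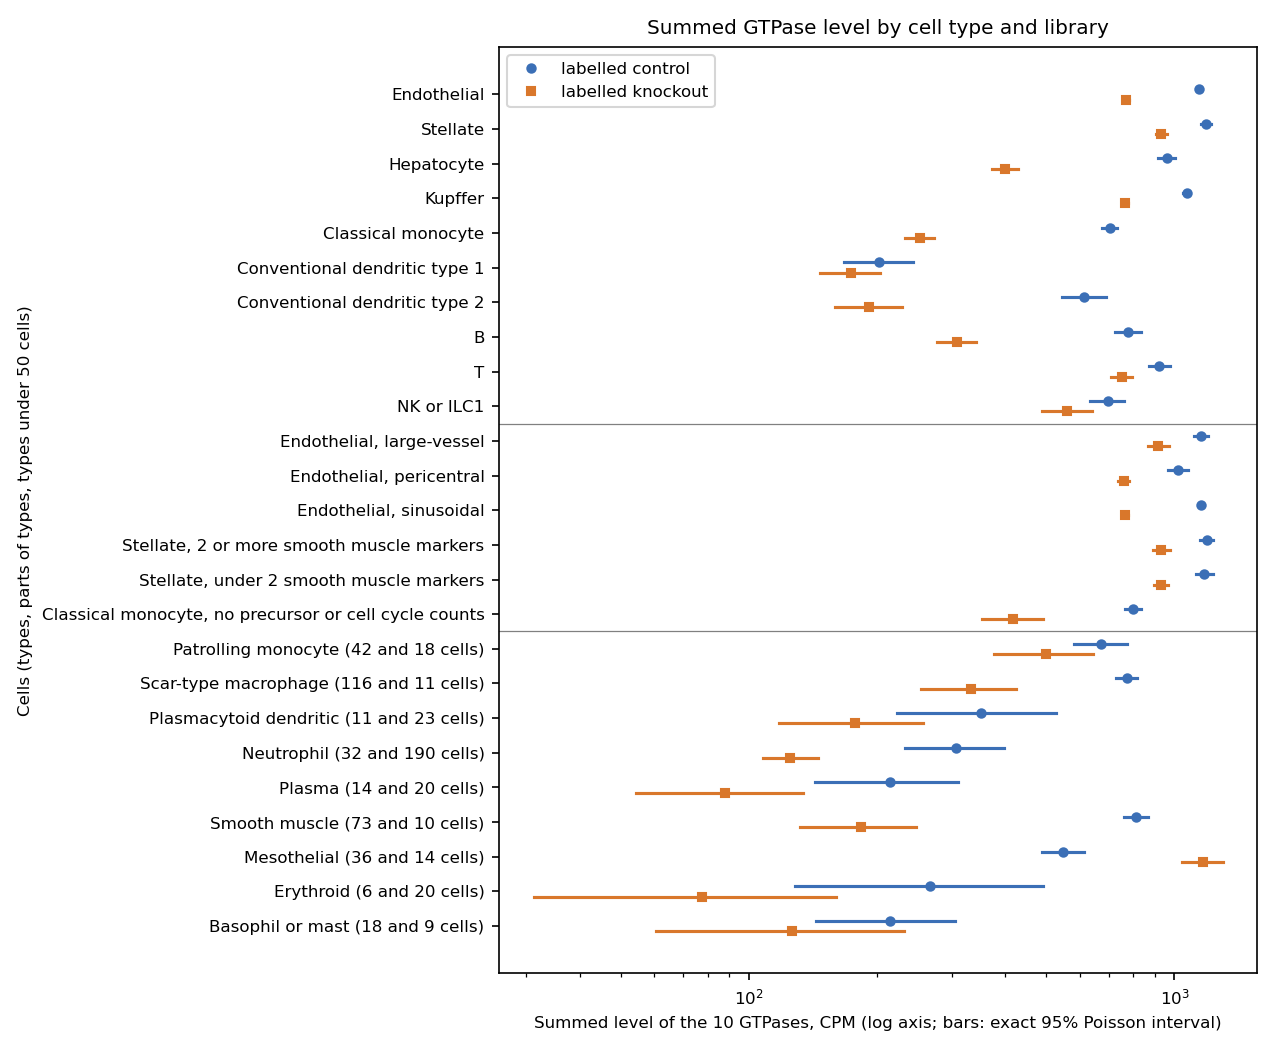
Summed level of the 10 GTPase genes in CPM (log axis) for each cell type, for parts of the endothelial, stellate and monocyte gates, and for types under 50 cells in a library, with exact 95% Poisson intervals. Circles stand for the control-labelled library and squares for the knockout-labelled library; the circle lies to the right in all rows but mesothelial cells (548 and 1165 CPM).

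In endothelial cells (1869 and 3438 cells), where the floxed gene can be deleted, all 10 GTPases were below the control-labelled library, 4 of them at least 1.5-fold, against 12.7% of 9186 measured genes lower by that rule. None of the 10 was higher, against 5.32% of genes. Their median log2 ratio (labelled knockout over labelled control) was -0.56, and that of all measured genes was -0.05. Igtp differed most among the 10, with 35.6 and 15.5 CPM, or a log2 ratio of -1.19 (-1.38 to -1.01). Irgm1, at 147 and 83.5 CPM, had -0.81, and Irgm2, at 109 and 65.9 CPM, had -0.73. In CPM the 3 membrane-guarding GTPases were thus all among the 4 genes past 1.5-fold, with Irgm2 the nearest of the 3 to that limit. Their place by that rule in other scalings is not given here. When all filtered cells were clustered, the endothelial cells of the libraries fell largely into different clusters: cluster 0 held 1077 and 397 cells, cluster 4 held 188 and 2526, cluster 3 held 293 and 219, cluster 21 held 210 and 88 and cluster 27 held 82 and 248. The gate joins these clusters, and the part of that split in the ratios was not tested.

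The effector Iigp1 had 362 CPM in the control-labelled library and 247 in the knockout-labelled library, or a log2 ratio of -0.55 (-0.60 to -0.50), just short of 1.5-fold. Gbp7 had 247 and 167 CPM (-0.57), also short of it. Gbp2 with 81.5 and 61.3 CPM (-0.41) and Gbp3 with 57.5 and 41 CPM (-0.49) were closer to each other. Gbp6, with 11.7 and 6.63 CPM (-0.82), was the fourth gene past 1.5-fold and is uncertain by its shared sequence. Gbp5 (26.3 and 23.6 CPM) and Gbp9 (61.8 and 59.6 CPM) had intervals that included equal levels, and TMM scaling, which moved the median of all genes by 0.15, put Gbp5 at -0.01 and Gbp9 at 0.09. The other 8 genes stayed below the control-labelled library in that scaling, and the summed log2 ratio was -0.42 in place of -0.57.

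The summed level was lower in the knockout-labelled library in each kind of endothelial cell. Sinusoidal cells (1501 and 2840) had a summed level of 1153 and 767 CPM, or a log2 ratio of -0.59 (-0.62 to -0.55). Pericentral cells (123 and 464) had 1019 and 760 CPM, or -0.42 (-0.51 to -0.33). Large-vessel cells (201 and 120) had 1153 and 917 CPM, or -0.33 (-0.43 to -0.23). Irgm1 had nearly the same ratio in the 3 kinds (-0.80, -0.67 and -0.81), whereas Iigp1 had -0.60 in sinusoidal, -0.29 in pericentral and -0.17 in large-vessel cells. In pericentral cells 8 of 10 genes were below 0. The others were Gbp5 (0.44, interval -0.18 to 1.11) and Gbp9 (0.09, interval -0.28 to 0.48). In large-vessel cells the intervals of Gbp2, Gbp3, Gbp5, Gbp9 and Iigp1 included equal levels. These parts were chosen after the data had been seen.

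In stellate cells (458 and 502 cells), the vitamin A storing and collagen-making cells of the liver, all 10 genes were again below the control-labelled library. The summed log2 ratio was -0.35, against -0.57 in endothelial cells, although Irgm1, Gbp3 and Gbp9 (-0.32) lay farther below 0 than there. Of the 10, 2 were at least 1.5-fold lower, against 10.9% of 9402 genes, and 0 were higher, against 7.81%. Those were Irgm1, with 73.8 and 38.9 CPM and a log2 ratio of -0.92 (-1.19 to -0.66), and Gbp3, with 104 and 67.9 CPM and -0.62 (-0.83 to -0.41). Irgm2, with 161 and 157 CPM, had -0.04 (-0.19 to 0.11). Its neighbour Igtp, with 54 and 38.1 CPM, had -0.50, and so lay below Irgm2 in stellate as in endothelial cells. The 2 clusters of stellate cells also split by library, with 331 and 14 cells in cluster 14 and 294 and 575 in cluster 15. The gate held more cells with smooth muscle markers in the control-labelled library. It held 257 with at least 2 such markers and 201 with fewer, against 175 and 327. The summed ratio was -0.36 and -0.34 in these parts, near the -0.35 of all stellate cells. Single genes did not all keep their sign. In the part with at least 2 such markers 8 of 10 genes were below 0, and in the other part 9 of 10. The highest log2 ratios in these parts were 0.14 and 0.13.

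**Figure D3:**
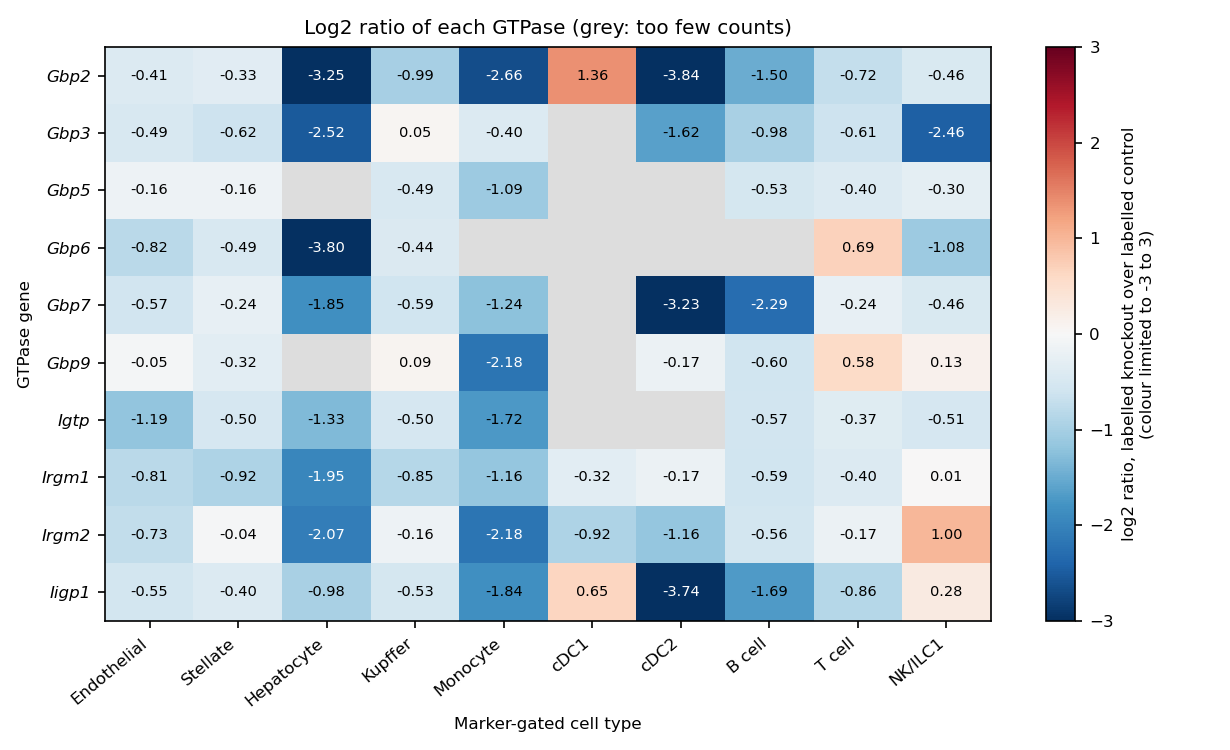
Log2 ratio of each GTPase gene (rows) in each cell type (columns), knockout-labelled library over control-labelled library, blue for lower and red for higher, grey where counts were too few. The columns of endothelial and stellate cells are below 0 throughout in this CPM scaling (TMM scaling puts Gbp9 in endothelial cells at 0.09), and values above 0.5 stand in T cells (Gbp6 and Gbp9), in NK or ILC1 (Irgm2) and in type 1 dendritic cells (Gbp2 and Iigp1).

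Kupffer cells (853 and 1178), the resident macrophages of the sinusoids, split the guanylate-binding proteins. Gbp2 had 143 CPM in the control-labelled library and 72 CPM in the knockout-labelled library, or a log2 ratio of -0.99 (-1.10 to -0.88). Gbp7 had 272 and 181 CPM (-0.59), and Gbp5 had 46 and 32.6 CPM (-0.49). Gbp3, at 93 and 96.6 CPM, and Gbp9, at 51.4 and 54.9 CPM, were level within their intervals. Irgm1 had 121 and 67.2 CPM (-0.85, interval -0.97 to -0.73) and Irgm2 107 and 95.8 CPM (-0.16, interval -0.27 to -0.05). By size 3 of 10 genes were lower (Gbp2, Gbp7 and Irgm1), against 5.9% of 8660 genes, and 0 were higher, against 4.04%. Kupffer cells of the knockout-labelled library were deeper, with a median of 15970.5 counts against 10305, and held a median of 3 of 8 endothelial markers against 2. The endothelial marker Cdh5 was 408 and 620 CPM in them, and Ccn2 14.6 and 4.49 CPM. The part of these in the GTPase ratios was not tested. With each cell thinned to 2800 counts, the summed ratio stayed within its counting interval of -0.52 to -0.45.

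In classical monocytes (596 and 182 cells), the recruited blood monocytes, 9 of the 10 genes were measured and 8 were at least 1.5-fold lower, against 14.7% of 9013 genes; 0 were higher, against 19.1%. Gbp2 had 173 and 27.3 CPM, or a log2 ratio of -2.66 (-3.04 to -2.31). Gbp9 had 43.5 and 9.62 CPM and Irgm2 50.5 and 11.2 CPM, both at -2.18. Gbp3, with 73.4 and 55.8 CPM (-0.40), was the measured gene short of 1.5-fold. Gbp6 gave 22 and 0 counts.

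The monocyte gate did not hold the same cells in the 2 libraries. Mki67, a gene of dividing cells, was found in 8.56% and 60.4% of its cells, and Mpo, a granule gene of early myeloid cells, in 2.35% and 24.2%. Median counts per cell were 5775.5 and 12194.5. In the 423 and 45 monocytes with no count of Mpo, Elane, Prtn3, Ctsg, Mki67 or Top2a, a selection made after the data had been seen, the summed level was 800 and 418 CPM, or a log2 ratio of -0.94 (-1.19 to -0.69), against -1.48 for the whole gate. In these cells 6 of 9 measured GTPases were lower, against 18% of 8491 genes, and 0 were higher, against 12.2%, with Gbp2 at 219 and 86.5 CPM (-1.34). Types taken from clusters gave a summed ratio of -0.57, so the size of the monocyte difference depended on which cells were counted as monocytes.

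T cells (224 and 302 cells) held differences in both directions. Gbp6 had 24.5 and 39.5 CPM, or a log2 ratio of 0.69 (0.07 to 1.33), and Gbp9 had 49.8 and 74.3 CPM, or 0.58 (0.14 to 1.03). Iigp1 had 78.1 and 42.9 CPM (-0.86, interval -1.31 to -0.42) and Gbp2 126 and 76.6 CPM (-0.72, interval -1.06 to -0.39). Igtp, the GTPase for which T cells led, had 119 and 92.1 CPM (-0.37). By size 1 gene was higher (Gbp6), against 11.6% of 9314 genes, and 3 were lower (Gbp2, Gbp3 and Iigp1), against 12.3%. The summed level was 921 and 751 CPM, or a log2 ratio of -0.29 (-0.41 to -0.18).

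In B cells (186 and 238 cells) Gbp7 stood out among the 10. It had 306 CPM in the control-labelled library and 62.7 CPM in the knockout-labelled library, or a log2 ratio of -2.29 (-2.68 to -1.91), and was found in 56.5% and 13.4% of B cells. Gbp2 had 101 and 35.8 CPM (-1.50), Iigp1 43.4 and 13.4 CPM (-1.69) and Gbp3 132 and 67.2 CPM (-0.98). Of 9 measured genes 6 were lower, against 15.9% of 8890 genes, and 0 were higher, against 13.8%. The other 5 measured genes lay between -0.53 and -0.60 with intervals that included equal levels, and 2 of them, Gbp9 and Irgm1, were past 1.5-fold. B cells of both libraries had like depth, with medians of 4554 and 4063.5 counts.

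NK or ILC1 (110 and 65 cells) gave few counts. Irgm2 had 26.2 and 52.4 CPM, or a log2 ratio of 1.0 (-0.01 to 2.02), Gbp3 43.2 and 7.85 CPM (-2.46, interval -4.82 to -0.76) and Gbp7 295 and 215 CPM (-0.46, interval -0.85 to -0.08). All 10 genes were measured, 1 was higher, against 17.7% of 7133 genes, and 2 were lower (Gbp3 and Gbp6), against 13.4%, shares not far from the background.

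The 2 kinds of conventional dendritic cell differed in level in the control-labelled library, with summed levels of 202 CPM in type 1 and 613 CPM in type 2. In type 2 (62 and 65 cells) the knockout-labelled library held 192 CPM, or a log2 ratio of -1.68 (-2.0 to -1.37). Gbp2 had 156 and 10.9 CPM (-3.84, interval -5.20 to -2.72) and Gbp7 132 and 14 CPM (-3.23), whereas Irgm1, at 103 and 91.9 CPM, had -0.17 (-0.75 to 0.42). Of 7 measured genes 5 were lower, against 12.1% of 7031 genes, and 0 were higher, against 15.6%. In type 1 (62 and 63 cells) 4 genes were measured: 2 were higher, Gbp2 (4 and 16 counts) and Iigp1 (16 and 39 counts), against 14% of 7662 genes, and 1 was lower, Irgm2, against 10.8%. All 4 intervals in type 1 included equal levels. The higher counts came from few cells: Gbp2 was found in 4 of 62 and 3 of 63 cells, and Iigp1 in 12 of 62 and 4 of 63, fewer in the knockout-labelled library.

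Hepatocytes that had escaped depletion (264 and 75 cells) cannot be compared closely. Of 8 measured GTPases 8 were lower, but so were 54.4% of 8522 genes, and 0 were higher, against 11.3%. The median mitochondrial share of these cells was 1.21% and 7.89%, and the 75 cells of the knockout-labelled library, with a median of 5075 counts, held 1972197 counts in all. Iigp1 had 633 CPM in the control-labelled library and 320 in the knockout-labelled library, or a log2 ratio of -0.98 (-1.12 to -0.84), and -0.37 with TMM scaling, which moved the median of all genes by 0.61. The other measured GTPases lay between -1.33 (Igtp) and -3.80 (Gbp6). The part of the mitochondrial share and of the scaling in these values was not tested beyond that.

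Across the types, Irgm1 was lower in 6 of 10 types and Gbp2 in 6 of 10, while Gbp3 was lower in 6 of 9. The share of all genes lower by that rule ran from 5.9% in Kupffer cells to 15.9% in B cells, and was 54.4% in hepatocytes. Hepatocytes and the unlike monocyte gates are counted here wherever the gene was measured in them. Irgm1 in B cells had an interval that included equal levels (-1.26 to 0.07). Gbp7 was below the control-labelled library in 9 of 9 types, past 1.5-fold in 5. Igtp was below it in 8 of 8, past 1.5-fold in 3. Gbp5 was below it in 7 of 7, past 1.5-fold only in classical monocytes (-1.09). Gbp9 was below it in 5 of 8 types, the smallest share of the 10 genes, with a median log2 ratio of -0.11. Its range, from -2.18 in classical monocytes to 0.58 in T cells, was narrower than those of Gbp2 (-3.84 to 1.36), Gbp6 (-3.80 to 0.69) and Iigp1 (-3.74 to 0.65). The types share 2 libraries and are not replicates of the genotype.

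**Figure D4:**
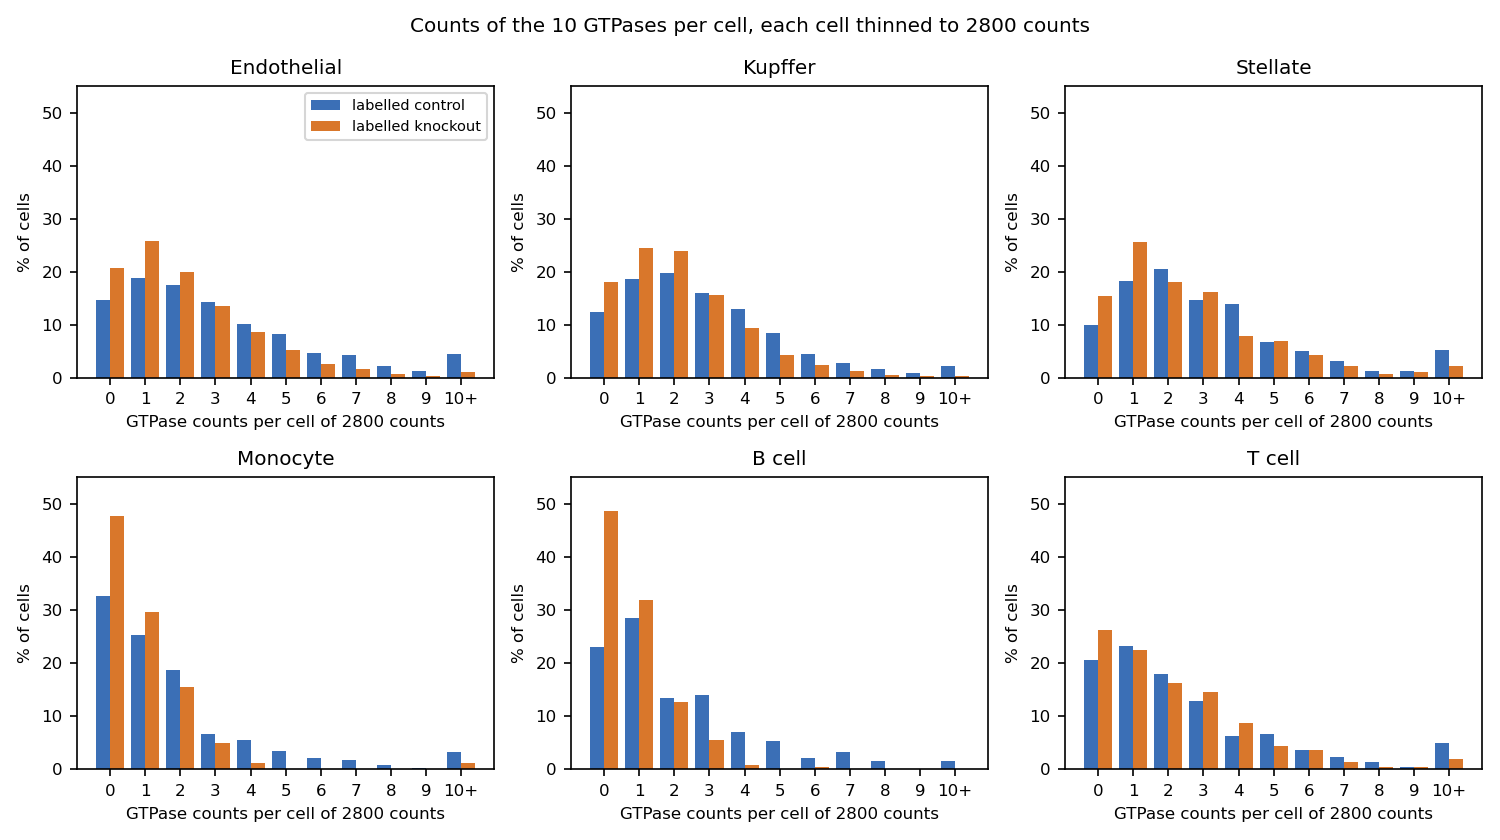
Distribution over single cells of the summed counts of the 10 GTPases, as the percentage of cells of a type (bars from 0) with 0 to 9 or at least 10 counts, each cell thinned to 2800 counts; blue is the control-labelled library and orange the knockout-labelled library. The bar at 0 counts is taller for the knockout-labelled library in all 6 types, and in B cells it reaches 48.7% against 23.1%.

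The counts were spread over most cells of the high types. With each cell thinned to 2800 counts, 85.4% (83.8 to 87) and 79.3% (77.9 to 80.6) of endothelial cells held at least 1 count of a GTPase, and 34.2% and 21.1% held at least 3 different ones. In Kupffer cells these were 87.6% and 82%, and 36.2% and 23.9%. In stellate cells they were 90% and 84.7%, and 37.1% and 27.5%. The tenth of endothelial cells with the most counts held 31.7% of them in both libraries, so the cells with most counts took the same share in each.

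Among the immune cells other than Kupffer cells, the share of cells with several GTPases was lower in B cells, classical monocytes and type 2 dendritic cells of the knockout-labelled library. In B cells 76.9% and 51.3% held any GTPase count, and 19.9% and 0.84% held at least 3 different genes. In classical monocytes the latter share was 16.1% (13.2 to 19.3) and 4.4% (1.92 to 8.48). In type 2 dendritic cells it was 17.7% (9.2 to 29.5) and 1.54% (0.0389 to 8.28). Intervals overlapped in T cells, with 27.7% (21.9 to 34) and 22.5% (17.9 to 27.7), and in NK or ILC1, with 16.4% (10 to 24.6) and 13.8% (6.53 to 24.7). In type 1 dendritic cells it was 0% and 1.59%, or 0 and 1 cell. Before thinning, the shares with any count were 95.8% and 94% in endothelial, 98.5% and 98.4% in Kupffer and 86% and 64.3% in B cells. Free RNA in the suspension can add counts. In erythroid cells (6 and 20 cells, median 7142.5 and 3929.5 counts) 50% (11.8 to 88.2) and 10% (1.23 to 31.7) held a GTPase count after thinning, with overlapping intervals. In neutrophils (32 and 190 cells, 4800 and 6404 counts) the shares were 46.9% (29.1 to 65.3) and 22.1% (16.4 to 28.7). Whether the neutrophil counts were free RNA or the cells' own was not tested. The neutrophil share, too, was lower in the knockout-labelled library, and the part of free RNA in the types above was not tested. Hepatocytes, the type with the most Iigp1, also left a trace that moved with the libraries: of 8 hepatocyte markers, the median cell held 1 in the control-labelled and 0 in the knockout-labelled library in endothelial, B, T and NK or ILC1 cells and classical monocytes, and 2 and 1 in type 1 dendritic cells. It held 1 in both libraries in Kupffer, stellate and type 2 dendritic cells. The part of hepatocyte RNA in the GTPase ratios was not tested. The shares of type 1 dendritic cells with any GTPase count after thinning (30.6% and 25.4%) lay below or near those of neutrophils.

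Of the genes that feed interferon-gamma to the GTPases, the ligand gene Ifng was higher in T cells of the knockout-labelled library but not in NK or ILC1. Ifng in T cells was 20.1 CPM (13.2 to 29.2) and 62.3 CPM (51.2 to 75.2), or a log2 ratio of 1.63, found in 10.3% and 21.2% of T cells. In NK or ILC1 it was 110 CPM (85.5 to 138) and 86.4 CPM (59.5 to 121), within the intervals of each other. It had 4 and 8 counts in endothelial cells and 0 in stellate cells. Of the listed interferons and inducers of interferon-gamma, 1 of 2 measured was lower in endothelial cells, Il18 (10 and 1.26 CPM), against 12.7% of all genes. In Kupffer cells 1 of 3 was lower, again Il18 (190 and 94.8 CPM), against 5.9%. In these types 0 were higher, against 5.32% and 4.04%. In B cells 1 of 3 was higher, Il12a (9.31 and 34.9 CPM), against 13.8%, and 2 were lower, against 15.9%. The receptor chain Ifngr1 was 118 and 82.1 CPM in endothelial cells, 345 and 600 in Kupffer cells and 107 and 105 in stellate cells. In T cells it was 430 and 615 CPM, in NK or ILC1 295 and 694 and in classical monocytes 610 and 403.

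Downstream of the receptor, Irf1 was 147 and 141 CPM in endothelial, 159 and 189 in Kupffer, 121 and 116 in stellate and 120 and 56.2 in classical monocytes. Socs1, the feedback inhibitor of the kinases, was 29.2 and 40.8 CPM in endothelial cells and 114 and 117 in T cells. In B cells Socs1 was 39.3 and 10.7 CPM, from 38 and 12 counts. Ifngr2, the second receptor chain, was 106 and 92.3 CPM in endothelial cells and 158 and 185 in Kupffer cells.

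Of 20 genes listed as other interferon-inducible GTPases, 18 were in the files, and their induction by interferon was not tested. In endothelial cells 10 were measured and 5 were lower, against 12.7% of all genes, with a median log2 ratio of -0.60; at the ends of the list stood F830016B08Rik (39.1 and 22.1 CPM, -0.83), Ifi47 (92.1 and 52.3 CPM, -0.82), Gbp4 (39.1 and 47.4 CPM, 0.28) and 9930111J21Rik2 (94.7 and 121 CPM, 0.35). In Kupffer cells 13 were measured, 3 lower (5.9% of all genes) and 2 higher (4.04%). The higher ones there were Gbp2b, the gene between Gbp3 and Gbp2, with 90.1 and 198 CPM (1.14, interval 1.03 to 1.24), and Gvin2, with 12.3 and 21.4 CPM (0.80). So in Kupffer cells 3 neighbours in a row had ratios of 0.05 (Gbp3), 1.14 (Gbp2b) and -0.99 (Gbp2). Gbp2b went the other way in B cells, with 49.6 and 4.48 CPM (-3.47, interval -5.16 to -2.15) from 48 and 5 counts. In classical monocytes 10 of 11 were lower, against 14.7% of all genes. In stellate cells 1 of 9 was lower, near the 10.9% of all genes. In T cells 0 of 12 were lower, against 12.3%, 1 was higher, against 11.6%, and the median was 0.24. The higher one was Irgq, with 5.2 and 10.9 CPM from 7 and 19 counts. Its interval of -0.25 to 2.56 included equal levels.

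**Figure D5:**
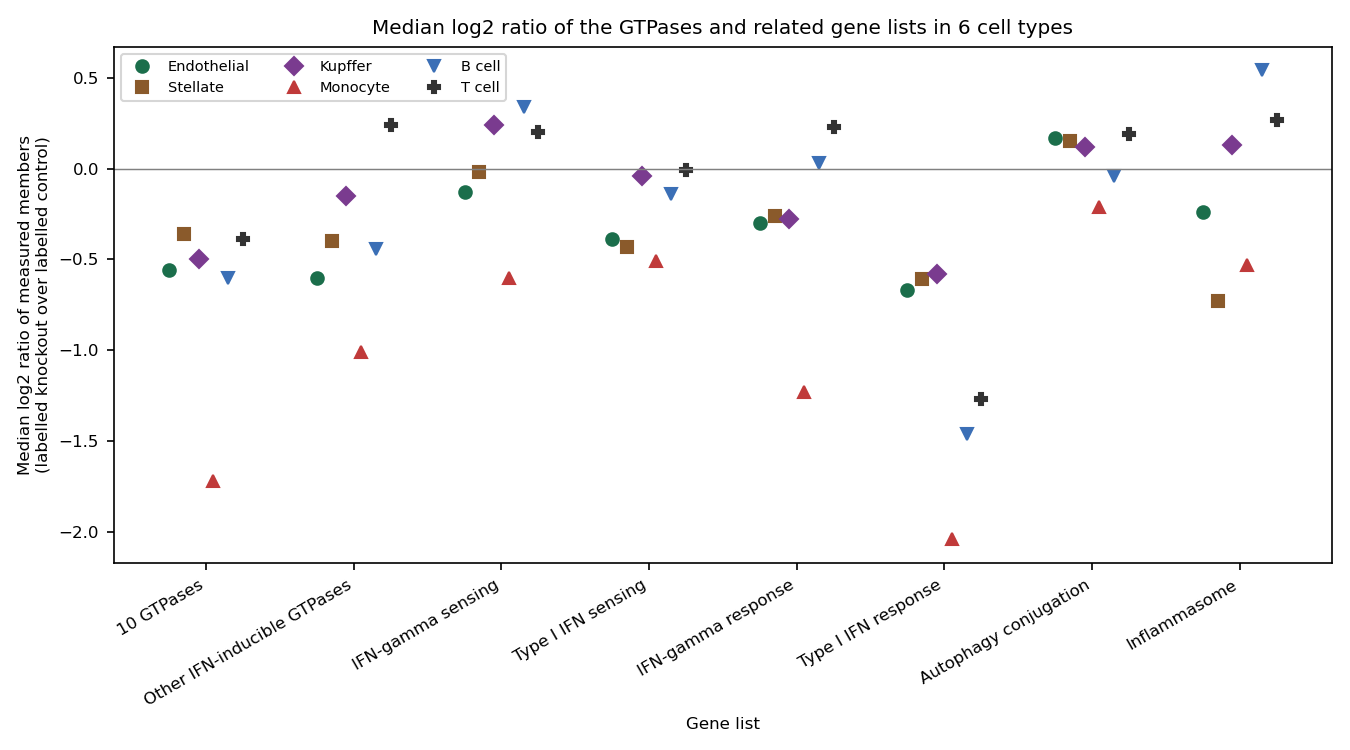
Median log2 ratio (knockout-labelled library over control-labelled library) of the measured members of the 10 GTPases and of 7 related gene lists, for 6 cell types marked by colour and shape. Genes typical of the type I interferon response lie below 0 in all 6 types, from -0.58 in Kupffer cells to -2.04 in monocytes, while autophagy conjugation genes lie between -0.21 and 0.19.

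Beside the GTPases, genes typical of the type I interferon response were lower in most types. In endothelial cells 8 of 12 measured were lower, against 12.7% of all genes, and 0 were higher, against 5.32%. The median there was -0.67, with Isg15 at 53.2 and 19.3 CPM (-1.47). In Kupffer cells 6 of 12 were lower, against 5.9% of all genes (median -0.58), in stellate cells 6 of 12, against 10.9% (-0.61), and in classical monocytes 10 of 12, against 14.7% (-2.04). Type 1 dendritic cells had 3 of 8 higher, against 14% of all genes, 2 lower, against 10.8%, and a median of 0.48. In T cells 10 of 11 were lower, against 12.3%, with a median of -1.27, Usp18 being 36.4 and 6.86 CPM (-2.41) and Isg15 22.3 and 5.15 CPM (-2.12), against the median of -0.39 for the 10 GTPases. Whether the 2 lists differ was not tested.

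Of the genes typical of the interferon-gamma response, the share lower varied between types. In endothelial cells 1 of 11 was lower, against 12.7% of all genes: Ciita, the switch of class II antigen presentation (13.2 and 3.73 CPM, -1.82), and the median was -0.30. In classical monocytes 6 of 11 were lower, against 14.7%, with a median of -1.23. In Kupffer cells 2 of 11 were lower, against 5.9%, among them Cxcl9 (96.7 and 31.1 CPM, -1.64). There 1 was higher, against 4.04%, namely Cxcl10 (43.1 and 113 CPM, 1.39). In T cells 0 of 9 were lower, against 12.3%, and 1 was higher, near the 11.6% of all genes, with a median of 0.23. In stellate cells 3 of 10 were lower, against 10.9% (-0.26). Of 9 autophagy conjugation genes, which direct the GTPases, 1 was higher in endothelial cells (Gabarapl1, 83.6 and 128 CPM), against 5.32% of all genes. There 0 were lower, against 12.7%, and in Kupffer cells 0 were either, against 5.9% lower and 4.04% higher. The inflammasome list, served by the guanylate-binding proteins, held 2 lower genes of 6 in endothelial cells, against 12.7% of all genes. They were Nlrp3 (16.9 and 3.45 CPM) and Aim2 (17.1 and 10.9 CPM). In Kupffer cells 0 of 6 were lower, against 5.9%, and Casp4 was 34.8 and 50.4 CPM. In stellate cells 3 of 5 measured were lower, against 10.9%, and in classical monocytes 3 of 6, against 14.7%. In T cells 1 of 5 was higher, against 11.6%, and in B cells 2 of 5, against 13.8%. In both 0 were lower, against 12.3% and 15.9%.

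Over the 20 combinations of type and library, which share 2 libraries and differ in depth, the genes most like the summed GTPase level by Spearman's rho, of 10027 compared, were Selenow (0.88), Bcl2l1 (0.85), Zfpm2 (0.84), Ankrd40 (0.83), Ajuba, Eaf1, Ifit1 and a gene listed as ENSMUSG00000121137 (each 0.82). Ifit1, of the type I interferon response, is the only gene of these 8 from the lists used here. Among the 10 GTPases themselves, Igtp and Gbp6 were most alike (0.92), followed by Gbp5 and Gbp2 (0.85). Gbp7 had 0.80 with both Gbp9 and Igtp. Iigp1 was like Irgm2 (0.73) and unlike Gbp5 (-0.11), and Irgm1 had no value above 0.43, that with Irgm2. Among the guanylate-binding proteins the values ran from 0.23 (Gbp6 and Gbp3) to 0.85. These are descriptions of order and carry no test.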

How the data were processed

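Whole transcriptome libraries were made on the BD Rhapsody system from the liver cells of 1 mouse for each genotype label and read on a DNBSEQ-G400RS instrument, per the labels' protocols. The authors deposited raw whole-number counts for each gene symbol and barcode, on build GRCm39 by the submitters' processing notes. The sources used here name no aligner or cell caller and do not say whether molecular identifiers were collapsed, so intervals may be too narrow even for counting error. Each file lists 10000 barcodes.

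Barcodes were dropped under 300 genes or 500 counts, or over a mitochondrial share of 25%; 2082 and 1184 were over that mitochondrial share. A cell was given a type when it held the minimum number of that type's markers (3 to 6 of 5 to 9), set after the marker counts had been seen. Cells passing several gates (25.1% and 22.7%) were left out, which serves against mixed doublets, and 11.3% and 3.88% passed none. Scrublet's own threshold marked 1 cell per library and was not used; its top 5% was an alternative. Counts were summed per type and library and given as CPM of the type's total, with exact Poisson intervals for levels, exact conditional intervals for ratios and Clopper-Pearson intervals for shares. In a ratio, 0 counts were replaced by 3. Scanpy 1.11.5 was used for clusters and edgeR 4.0.16 for TMM scaling alone. The ratio code was checked on simulated counts.

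The members, marker lists and gene lists were chosen with earlier results of these data known. Named were the 10 genes in every type with at least 50 cells, Ccn2, Cdh5, Ifng, Ifngr1, Ifngr2, Irf1 and Socs1, the 2 highest and 2 lowest measured genes of each other list (only some are printed, and 1 named gene is not reported here), and the 8 genes most like the sum. Gbp2b, Irgq and the genes of the monocyte gate were named after their values had been seen. Alternatives were other cell filters, gates, clusters, scalings, thinning and means over cells, other fold and count limits, and parts of 3 gates added after seeing the data.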

Additional observations from a re-analysis of the deposited data

Results flagged for a closer look

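In 4 GTPases the ratio (knockout-labelled library over control-labelled library, log2) had opposite signs in 2 cell types, each at least 1.5-fold. In none of them was the difference between the types tested, since each label has 1 library. Gbp2 was 1.36 in type 1 conventional dendritic cells, from 4 and 16 counts in 4 and 3 cells, and -3.84 in type 2, from 71 and 7 counts. Iigp1 was 0.65 in type 1 dendritic cells, from 16 and 39 counts in 12 and 4 cells, and -3.74 in type 2, from 19 and 2 counts in the latter. Gbp6 was 0.69 in T cells and -3.80 in hepatocytes, where 54.4% of all genes were lower, and its reads may be shared with copies. Irgm2 was 1.0 in NK or ILC1, from 17 and 20 counts, and -2.18 in classical monocytes.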

How the results depend on the processing

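No paired analysis was possible because each label has 1 library and the labels give no replicate numbers. The summed log2 ratio stayed below 0 in 105 of 106 alternatives over 10 types; the exception reached 0.08 in type 1 dendritic cells, whose range began at -0.46. In endothelial, Kupffer, stellate and T cells and classical monocytes, 45 of 56 alternatives stayed within the counting interval. In classical monocytes the ratio of -1.48 became -0.57 with types from clusters, -1.35 as a mean of CPM over cells, -1.15 with cells thinned to 2800 counts and -0.94 without precursor or cell cycle counts. In endothelial cells -0.57 became -0.42 with TMM and -0.43 with median-of-ratios scaling, -0.33 in large-vessel and -0.42 in pericentral cells. In Kupffer cells -0.48 became -0.58 with 1 marker fewer in the gate, -0.43 with TMM and -0.44 with median-of-ratios scaling. Scaling acts by construction through the shift in all genes (0.15 in endothelial, 0.06 in Kupffer cells by TMM), and the cause of the others was not tested. Stellate cells ranged from -0.37 to -0.31, T cells from -0.32 to -0.21 and B cells from -1.46 to -1.24. Of 920 other ratios 843 stayed within the counting interval and 5 reversed, all in type 1 dendritic cells: Gbp2 was -2.62 with the stricter cell filter and -0.49 with 1 marker fewer, and Iigp1 was -0.35 with clusters, -0.06 as a mean over cells and -0.02 when thinned. The count of lower genes in endothelial cells was 4 at 1.5-fold (against 12.7% of all genes) and 1 at 2-fold, and 2 of those with at least 50 CPM. In B cells the count was 6 at 1.5-fold (against 15.9%) and 3 at 2-fold. Shares of all genes at 2-fold and at 50 CPM are not given here, so the counts at those limits have no background to be read against. Depth limits type 1 dendritic cells and NK or ILC1, where most genes had under 50 counts.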

Other observations

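Types with under 50 cells in a library were left out of the comparisons and are given here as values of the summed GTPase level. Mesothelial cells (36 and 14 cells), which line the liver surface, had 548 CPM (488 to 612) in the control-labelled library and 1165 CPM (1044 to 1297) in the knockout-labelled library, the other way from the 10 types above. Scar-type macrophages (116 and 11 cells) had 772 and 332 CPM, and cells of the smooth muscle gate (73 and 10 cells) 813 and 183 CPM. Patrolling monocytes (42 and 18 cells) had 672 CPM (581 to 773) and 498 CPM (377 to 645). Neutrophils (32 and 190 cells) had 307 and 125 CPM, plasmacytoid dendritic cells (11 and 23 cells) 352 and 178 CPM and plasma cells (14 and 20 cells) 215 and 87.9 CPM. In cholangiocytes (4 and 37 cells) the levels were 519 CPM (308 to 821) and 435 CPM (375 to 501).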
